A study of Homo sapiens with 6 samples.

Results

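AMP-activated protein kinase (AMPK) and the kinases that switch it on were examined in a plate screen that asked which siRNAs make SUM149PT cells more or less sensitive to eicosapentaenoic acid (EPA), an omega-3 fatty acid. The library wells were searched by locus identifier for 10 genes of this pathway, and 7 of them had a well, each 1 well of the 939 in the library. They are PRKAA1 and PRKAA2 (loci 5562 and 5563), PRKAG1 and PRKAG3 (5571 and 53632), STK11 (6794), CAMKK1 (84254) and CAMKK2 (10645). PRKAB1, PRKAB2 and PRKAG2 were not analysed here. SUM149PT is a human cell line from a triple-negative inflammatory breast cancer, and both groups consist of that line alone. In the EPA-treated group (3 samples, called replicates 4 to 6) cells met 50 µM EPA for 72 hours after 48 hours with 45 nM siRNA, and in the untreated group (3 samples, replicates 1 to 3) the cells had the same siRNAs and no EPA. Cells were then incubated with resazurin, which living cells turn into a fluorescent product, and the fluorescence of the well stands for the amount of living, metabolically active cells. Whether the 3 samples of a group were separate cultures is not stated. The p-values below rest on the spread among these samples, which limma moderates with that of all library wells. They may not cover the spread between separate cultures. Knockdown of the targets was not analysed here, and with 1 well per gene the loss of the target and other effects of its reagent cannot be told apart.

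AMPK is a heterotrimer of a catalytic alpha subunit, a scaffolding beta subunit and a gamma subunit that binds AMP, ADP and ATP. When cellular energy falls, nucleotide binding to gamma favours phosphorylation of alpha in its activation loop, and the active kinase slows fatty acid, sterol and protein synthesis and speeds fatty acid oxidation. The main kinase that phosphorylates alpha is LKB1, the product of STK11, and CaMKK2 does so when calcium rises.

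Plate and position touch every value that follows. By the median over wells, the library kept 59.0% ± 3.94 (SE) of its signal with EPA, and wells of OTP3, the negative control siRNA, kept 44.7% ± 4.83. By the mean over wells, the library kept 67.4% ± 4.21 and OTP3 50.8% ± 3.50. Blank wells read 3888 ± 28.9 in the EPA-treated group and 3738 ± 40.5 in the untreated group (SD, n = 3 each), which is the background level of the readings. The 159 library wells in plate rows 1 and 16 and column 24, called edge wells, kept 80.3% ± 6.62 (SE) by their median, and the 780 inner ones 57.9% ± 3.60. Each siRNA was therefore also set against its neighbours, the library wells within 2 rows and 2 columns of it on the same plate. The log2 values are relative to the median library well of the plate and sample, so 0 is the typical siRNA and not an untransfected cell.

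Of the 7 siRNAs, PRKAA1 and CAMKK1 lost the largest shares of their signal with EPA, PRKAG3 kept nearly all of a signal that was already low, and the other 4 siRNAs lay between. In limma's test of EPA-treated minus untreated, PRKAA1 was lower and PRKAG3 higher at an adjusted p under 0.05, and 5 of 7 did not pass. Over the 939 library siRNAs 15.2% were called lower and 29% higher, so 1 of 7 in each direction is not above the background. The median of the 7 differences was -0.11 on the log2 scale, beside 0.20 for all library siRNAs. The call of PRKAG3 did not hold when the difference was centred on the median siRNA (0.45, limma adjusted p = 0.0576). On the log2 scale relative to the plate, the samples of both groups did not overlap for 3 of 7. They were 1 lower (PRKAA1) and 2 higher (PRKAG3 and STK11), where 18.8% of library siRNAs did not overlap and were lower and 36% higher. Non-overlap on the raw scale, given below for single wells, was not counted over the library.

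**Figure D1:**
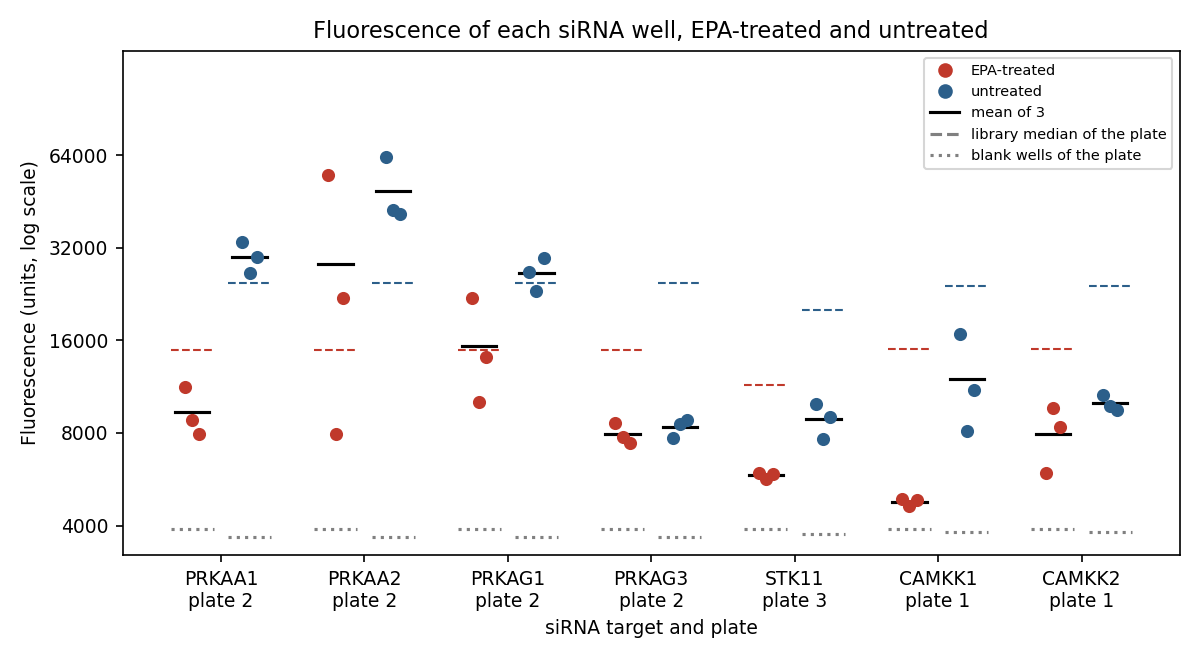
Fluorescence (log scale) of the 7 siRNA wells in the 3 EPA-treated (red, left) and 3 untreated (blue, right) samples, with the mean of 3, the library median of the plate and the blank wells. PRKAA1 lies below the plate's library median with EPA and above it without EPA, PRKAA2 scatters from 7919 to 55025 with EPA, and CAMKK1 comes to within 1.23 times the blank level.

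PRKAA1 encodes the alpha 1 catalytic subunit. Its well read 11322, 8840 and 7958 units in EPA-treated replicates 4, 5 and 6, against 33537, 26472 and 29876 in untreated replicates 1, 2 and 3. The groups did not overlap, and all 3 EPA-treated values were far below the lowest untreated one. With EPA 31.3% ± 3.98 (SE) of the signal was left, or 20.9% ± 4.19 after subtraction of the blank wells. The wells around it kept far more. Its 24 neighbours had a median of 77.0% left, with a range of 37.1% to 105%, and all 24 kept more than PRKAA1. They include wells of column 24, where library wells outside the corner rows kept 88.8% ± 11.8 (SE) by their median. By the median, the 20 library wells of its plate row kept 51.3% ± 5.69 and those of its plate 60.7% ± 7.22 (SE). Cells alone in the same plate row kept 45.8% ± 2.74 (2 wells).

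On the log2 scale PRKAA1 stood at -0.67 (SE 0.101, limma adjusted p = 0.000151) with EPA and at 0.28 (SE 0.101, limma adjusted p = 0.029) without it. The lower level with EPA was called in all 16 alternatives, but its size moved to -0.38 after median polish and to -1.25 when centred on OTP3. The higher level without EPA was called in 8 of 16, and it was lost without each untreated replicate in turn (0.26 to 0.32), after median polish (0.0014) and when centred on the neighbours (0.07). Of those 8, only quantile normalization (0.33) and leaving out edge wells (0.38) changed the value, and the others left it at 0.28. The difference was -0.95 (SE 0.143, limma adjusted p = 0.00108), rank 53 from the lowest of 939, and it was lower in 3 of 3 EPA-treated samples. Centring on the neighbours gave -1.12 and blank subtraction -1.35, and both passed. Median polish of plate rows and columns gave -0.39 (limma adjusted p = 0.0714), median polish with blank subtraction -0.58 (limma adjusted p = 0.0577) and centring on OTP3 -0.43 (limma adjusted p = 0.0753), so the call was lost in these 3. It passed in the other 13 of 16 alternatives, where the adjusted p over all 16 ran from 0.000245 to 0.0753. The well lies 2 columns in from the plate edge.

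Of all library siRNAs, the 3 whose 6 log2 values lay closest to those of PRKAA1 were against GNA13, a G protein alpha subunit, PGK2, a phosphoglycerate kinase, and TIE1, an endothelial receptor kinase. Their Euclidean distances were 0.333, 0.338 and 0.354, beside a median of 2.10 over all library siRNAs. They stood at -1.02, -1.11 and -0.93 in EPA-treated minus untreated, near PRKAA1 by construction, since they were chosen on the same 6 values.

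PRKAA2 encodes the other catalytic subunit, alpha 2. Its well read 55025, 7919 and 21965 units in EPA-treated replicates 4, 5 and 6, against 63218, 42393 and 41222 in untreated replicates 1, 2 and 3. Replicate 4 with EPA was as bright as the untreated wells and replicate 5 was near the level of PRKAA1, so the groups overlapped. The coefficient of variation of the 3 EPA-treated values was 85.4%, and 0 of the 939 library wells had a higher one, beside a median of 14.6%. The well sits in plate column 24. The other 13 library wells of that column and plate, outside the corner rows, varied by a median of 18.8% and at most 31.8% with EPA, so the scatter was not shared by the column.

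With EPA PRKAA2 kept 57.8% ± 29.8 (SE) of its signal, beside a median of 80.1% among its 14 neighbours and 88.8% ± 11.8 for that column. On the log2 scale it stood at 0.53 (SE 0.336) with EPA and at 0.97 (SE 0.336) without it. Both groups share 1 SE in limma's fit, so the scatter with EPA also widens that of the untreated level. The difference was -0.44 (SE 0.475, limma adjusted p = 0.472), which did not pass. Without EPA-treated replicate 5 the difference was 0.23, and without EPA-treated replicate 4 it was -0.98, and neither passed. Without EPA the well was called higher than the library median (limma adjusted p = 0.0255). That call was lost after median polish (0.34, limma adjusted p = 0.548) and, in turn, without each untreated replicate, where the values ran from 0.83 to 1.06. The call held in 7 of 15 alternatives, among them without EPA-treated replicate 5 (0.97, SE 0.15, limma adjusted p = 0.000409). Of these 7, only quantile normalization changed the value (1.18, limma adjusted p = 0.00527). The others left it at 0.97 and could alter only its SE or its adjustment.

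The gamma subunits hold the nucleotide-binding sites. PRKAG1 encodes gamma 1, the widely expressed form. Its well read 21927, 10088 and 14136 units in EPA-treated replicates 4, 5 and 6, against 26747, 23109 and 29595 in untreated replicates 1, 2 and 3. All 3 readings with EPA were below the lowest one without it, replicate 4 only slightly, but relative to the plate the groups overlapped. With EPA 58.1% ± 13.7 (SE) was left, close to the library median of the plate at 60.7%. On the log2 scale PRKAG1 was at -0.01 (SE 0.149) with EPA and at 0.10 (SE 0.149) without it, and the difference was -0.11 (SE 0.211, limma adjusted p = 0.67). In none of the 16 alternatives did that difference pass, with values from -0.32 to 0.41. Its neighbourhood was a dim one. The median of the 24 neighbours was 7986 with EPA and 14864 without it, and centred on them PRKAG1 was higher in both groups, at 0.79 with EPA (limma adjusted p = 0.000401) and 0.89 without it (limma adjusted p = 0.000246).

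PRKAG3 encodes gamma 3, a form found chiefly in skeletal muscle. Its well lay 2 columns from that of PRKAG1 in the same plate row. It read 8610, 7753 and 7408 units in EPA-treated replicates 4, 5 and 6, against 7729, 8543 and 8804 in untreated replicates 1, 2 and 3. The groups overlapped on this raw scale, and 94.8% ± 5.64 (SE) of the signal was left with EPA, or 86.0% ± 8.82 after blank subtraction. Of its 24 neighbours 3 kept a larger share, and their median was 60.5%.

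Without EPA the PRKAG3 well was at 15.7% ± 1.11 of OTP3 (SD, n = 3) and at -1.56 on the log2 scale (SE 0.116, limma adjusted p = 1.75e-06), rank 49 from the lowest of 939. It was called lower in all 15 alternatives, between -2.65 and -1.01. A low-signal filter with a cut of 8290 is not among the 15, since it removed the PRKAG3 well. With EPA it was at -0.90 (SE 0.116, limma adjusted p = 5.03e-05), but at -0.22 when centred on its neighbours, where it did not pass (limma adjusted p = 0.297). The difference, EPA-treated minus untreated, was 0.66 (SE 0.164, limma adjusted p = 0.0101), higher than all untreated samples in 3 of 3 EPA-treated samples on the log2 scale. It is a difference relative to the plate, where the library median was lower with EPA, and not a brighter well. After blank subtraction it was 0.72 with a larger SE and did not pass (limma adjusted p = 0.0746), and it passed after median polish (0.96, limma adjusted p = 0.00156). The signal was 2.04 times that of the blank wells with EPA and 2.28 times without it. What part the blank level had in this difference was not tested beyond the blank subtraction above.

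**Figure D2:**
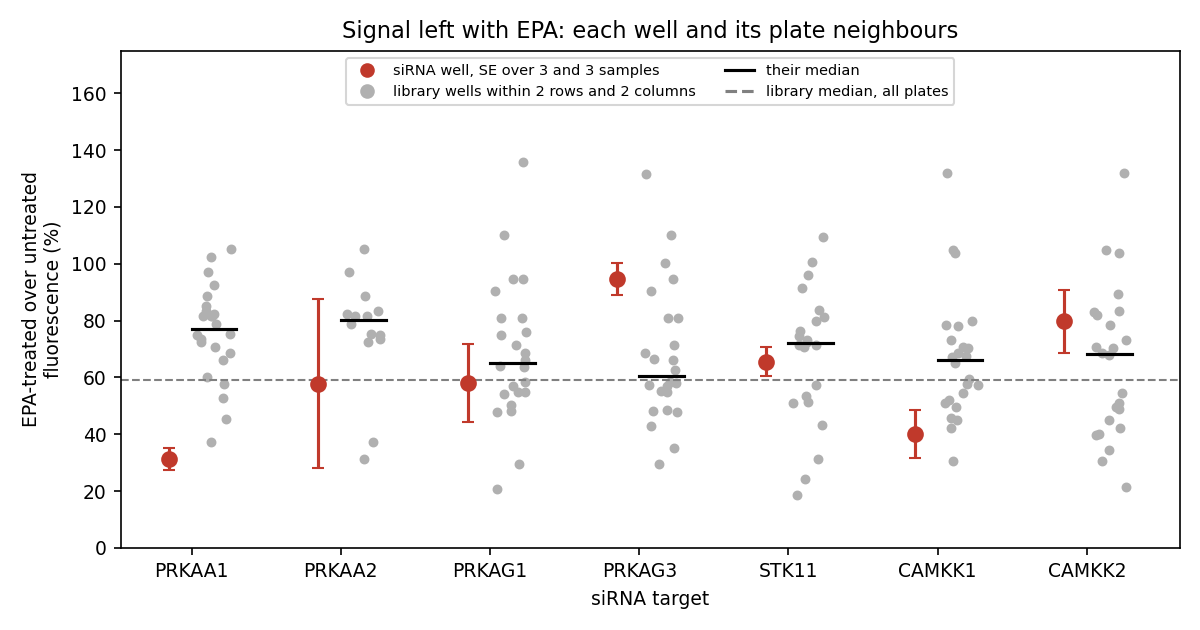
Share of the signal left with EPA (EPA-treated over untreated fluorescence, %) for each siRNA well (red, SE) and for the library wells within 2 rows and 2 columns of it (grey, black line at their median), with the library median over all plates dashed. PRKAA1 at 31.3% lies below all 24 neighbours and CAMKK1 at 39.99% below 23 of 24, while PRKAG3 at 94.8% lies below 3 of 24.

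STK11 encodes LKB1, the main upstream kinase of AMPK and a tumour suppressor. Its well read 5911, 5658 and 5898 units in EPA-treated replicates 4, 5 and 6, against 9975, 7665 and 9005 in untreated replicates 1, 2 and 3. On this raw scale the EPA-treated values were tight and all below the untreated ones. Relative to the plate the groups did not overlap either, but there the EPA-treated values were the higher ones. The level was low in both groups. At 26.3% ± 1.99 of OTP3 with EPA and 19.8% ± 2.37 without it (SD, n = 3 each), the well was at -0.97 (SE 0.106, limma adjusted p = 1.45e-05) and -1.18 (SE 0.106, limma adjusted p = 6.1e-06) on the log2 scale. These shares of OTP3 were taken without blank subtraction. The STK11 signal was only 1.498 times that of the blank wells with EPA and 2.371 times without it. After blank subtraction the well was at -1.96 with EPA and -1.69 without it, so the order of the groups turned. It was called lower in both groups in all 15 alternatives, but the size fell by more than 1.5 times after median polish, to -0.54 with EPA and -0.43 without it. The low-signal filter with a cut of 8290 is not among the 15, since it removed the STK11 well.

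The same plate carried 18 inner wells marked as having no siRNA. They read 14113 ± 1124 in the EPA-treated group and 42677 ± 2390 in the untreated group (SD, n = 3 each), so 33.1% ± 1.86 (SE) was left. The 3 such wells in column 24 kept 70.4% ± 4.11 (SE). By the same mean over wells, cells alone on this plate kept 45.3% ± 2.54, OTP3 49.6% ± 2.56 and the library 64.6% ± 4.25 (SE). STK11 kept 65.6% ± 5.03 (SE), or 37.7% ± 5.50 after blank subtraction, and its 22 neighbours a median of 72.0%. The difference, EPA-treated minus untreated, was 0.21 (SE 0.150, limma adjusted p = 0.277), at the library's median of 0.20. Its sign turned to -0.27 after blank subtraction, -0.11 after median polish and -0.05 when centred on the median siRNA. Centred on OTP3 it was 0.60 and passed (limma adjusted p = 0.015), the 1 of 15 alternatives where it did.

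CAMKK1 encodes a calcium/calmodulin-dependent protein kinase kinase known mainly for activating CaMKI and CaMKIV. Its well read 4877, 4615 and 4853 units in EPA-treated replicates 4, 5 and 6, against 16739, 8101 and 11030 in untreated replicates 1, 2 and 3. The groups did not overlap on this raw scale, but relative to the plate they did, with untreated replicate 2 at -1.59 and the EPA-treated samples between -1.77 and -1.55 on the log2 scale. The EPA-treated signal stood at 1.23 times that of the blank wells, and its log2 value held rank 18 from the lowest of 939. With EPA 39.99% ± 8.51 (SE) was left, or 10.9% ± 3.51 after blank subtraction, and 23 of its 24 neighbours kept more (median 66.1%).

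On the log2 scale CAMKK1 was at -1.65 (SE 0.168, limma adjusted p = 9.0e-06) with EPA and at -1.08 (SE 0.168, limma adjusted p = 0.000245) without it. The lower level with EPA was called in all 16 alternatives, between -3.65 and -0.85. The lower level without EPA was not called after median polish (-0.14, limma adjusted p = 0.407), with blank subtraction as well (-0.24, limma adjusted p = 0.495) or after centring on the neighbours (-0.23, limma adjusted p = 0.141). The difference, EPA-treated minus untreated, was -0.57 (SE 0.237, limma adjusted p = 0.0729) and did not pass. It passed in some alternatives, also with quantile normalization (-0.73, limma adjusted p = 0.012), but not without edge wells (-0.54, limma adjusted p = 0.0866). It was -0.74 after median polish (limma adjusted p = 0.00702), -0.62 centred on the neighbours (limma adjusted p = 0.0207), and -2.20 after blank subtraction (limma adjusted p = 0.00382). Without untreated replicate 2, the lowest of the untreated values, it was -0.83 and passed (limma adjusted p = 0.0129), and without untreated replicate 1, the highest, it was -0.30 and did not (limma adjusted p = 0.219). Centred on OTP3 it was -0.19, and over the 16 alternatives, of which it passed in 7, the adjusted p ran from 0.0023 to 0.539.

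CAMKK2 encodes the relative that phosphorylates AMPK when calcium rises. Its well lay 2 columns from that of CAMKK1 in the same plate row. It read 5919, 9615 and 8351 units in EPA-treated replicates 4, 5 and 6, against 10606, 9826 and 9513 in untreated replicates 1, 2 and 3. The groups overlapped, with EPA-treated replicate 5 above the lowest untreated value and replicate 4 well below. With EPA 79.8% ± 11.2 (SE) was left, or 65.9% ± 17.6 after blank subtraction, beside a median of 68.2% among 24 neighbours. On the log2 scale it was at -0.94 (SE 0.161, limma adjusted p = 0.000371) with EPA and at -1.27 (SE 0.161, limma adjusted p = 6.11e-05) without it. After median polish neither was called (0.10 with EPA, limma adjusted p = 0.405, and -0.24 without it, limma adjusted p = 0.053). The lower level was called in 15 of 16 alternatives without EPA and in 13 of 16 with EPA. Centred on the neighbours it passed without EPA (-0.85, limma adjusted p = 0.000274) and not with EPA (-0.31, limma adjusted p = 0.0588). The difference was 0.33 (SE 0.227, limma adjusted p = 0.259). It passed in 4 of 16 alternatives, among them centring on the neighbours (0.54, limma adjusted p = 0.0424) and leaving out EPA-treated replicate 4 (0.61, limma adjusted p = 0.0198). Without EPA-treated replicate 5 it was 0.14 (limma adjusted p = 0.65), and the adjusted p over all 16 ran from 0.0198 to 0.796.

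**Figure D3:**
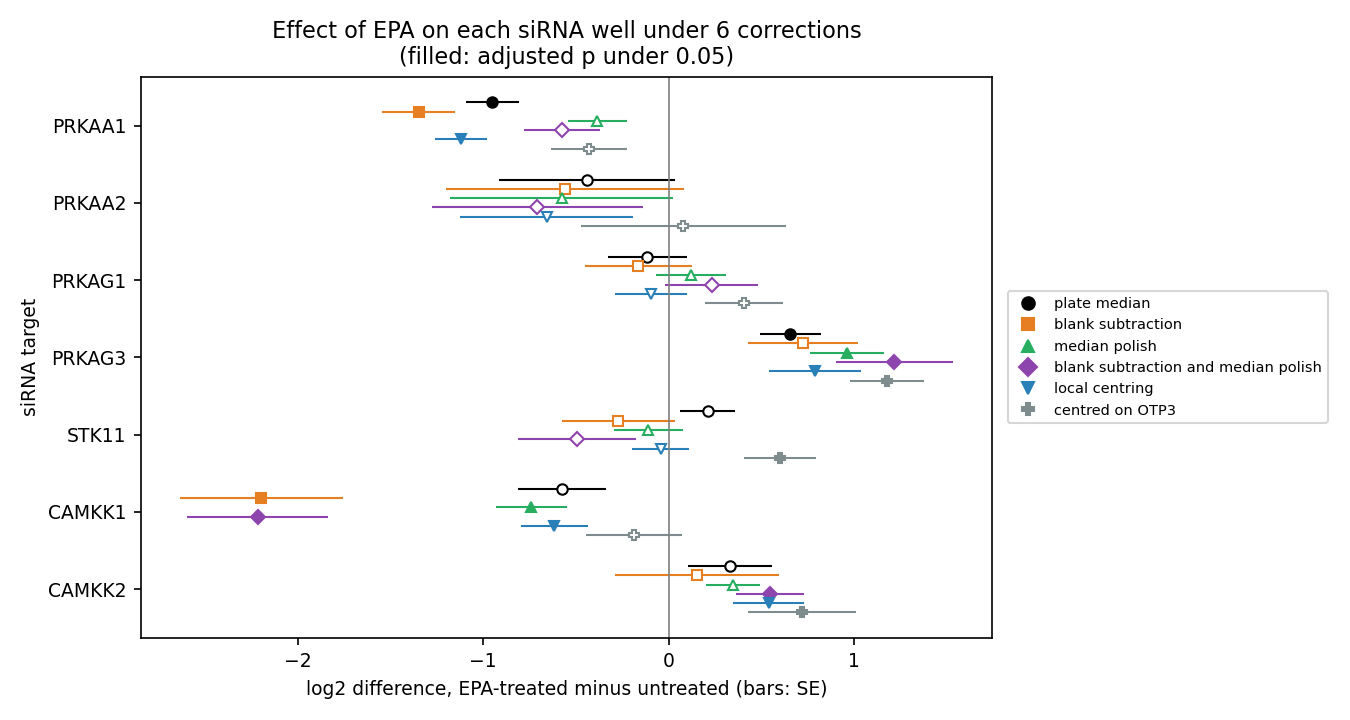
Log2 difference, EPA-treated minus untreated, for each siRNA under 6 corrections, with SE bars and filled symbols where limma's adjusted p was under 0.05. PRKAA1 and CAMKK1 are below 0 in all 6 and PRKAG3 and CAMKK2 above 0 in all 6, while PRKAG1, STK11 and PRKAA2 change sign.

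Against the library median of their plates, most of the 7 wells were dim. With EPA 5 of 7 were called lower and 0 higher (PRKAA1, PRKAG3, STK11, CAMKK1 and CAMKK2), where 37% of library siRNAs were lower and 36.4% higher. The 2 that did not pass were PRKAA2 and PRKAG1. Without EPA 4 of 7 were lower and 2 higher, where 35.6% were lower and 33.9% higher, and the 2 higher were PRKAA1 and PRKAA2. The median of the 7 was -0.90 with EPA and -1.08 without it, beside 0.03 and -0.01 for all library siRNAs. Median polish reduced it to -0.38 with EPA and -0.14 without it, with 4 lower and 1 higher, PRKAG1, with EPA (background 30.4% and 30.6%), and 2 lower and 0 higher without EPA (background 27.6% and 26.5%). The 2 that stayed lower without EPA were PRKAG3 and STK11.

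Related members were then compared in pairs, by the exact permutation test on the log2 difference between 2 wells of the same sample. With 3 samples against 3 the smallest p is 0.1, and 4 pairs were tested. CAMKK1 minus CAMKK2 was -0.71 ± 0.395 in the EPA-treated group and 0.20 ± 0.469 in the untreated group (SD, n = 3 each), a difference between groups of -0.90 (SE 0.354, exact permutation p = 0.1, 0.2 after adjustment over the 4 pairs). All 3 EPA-treated values were at or below all 3 untreated ones, at -0.28, -1.06 and -0.78 against 0.66, -0.28 and 0.21, where the pair of values at -0.28 differed only in later digits. The wells share a plate row, and that difference was -1.09 after median polish, -1.16 centred on the neighbours and -2.35 after blank subtraction.

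PRKAG1 minus PRKAG3 was 0.89 ± 0.486 in the EPA-treated group and 1.66 ± 0.194 in the untreated group (SD, n = 3 each), a difference between groups of -0.77 (SE 0.302, exact permutation p = 0.1, 0.2 after adjustment). The groups did not overlap, at 1.35, 0.38 and 0.93 with EPA against 1.79, 1.44 and 1.75 without it. PRKAG1 was the brighter of the pair in 6 of 6 samples. Centred on the neighbours the groups overlapped (exact permutation p = 0.2). For PRKAA1 minus PRKAA2 the difference between groups was -0.51 (SE 0.729, exact permutation p = 0.6, 0.7 after adjustment), and the groups overlapped. For STK11 minus CAMKK2, the pair of AMPK kinases, it was -0.12 (SE 0.281, exact permutation p = 0.7, 0.7 after adjustment), and the groups overlapped. Centred on the neighbours it was -0.58 and the groups did not overlap (exact permutation p = 0.1).

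Other genes of the pathway were given by 4 lists, each against the same background of 15.2% lower and 29% higher in EPA-treated minus untreated. LKB1 works in a complex with the pseudokinases STRADA and STRADB, and the wells of both were lower with EPA. STRADB was at -0.74 (SE 0.153, limma adjusted p = 0.00419) and STRADA at -0.50 (SE 0.142, limma adjusted p = 0.017), 2 of 2 measured, listed in the file under older symbols. Without EPA both were near the library median, at -0.06 and -0.08. After median polish STRADB was at -0.46 and passed (limma adjusted p = 0.0472), and STRADA at -0.41 did not (limma adjusted p = 0.0588).

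The AMPK-related kinases, most of them LKB1 substrates, had 0 lower and 5 higher among 14, with a median of 0.38 beside 0.20 for all library siRNAs. NUAK2 (0.63), BRSK1 (0.83) and BRSK2 (0.39) had the largest moderated statistics. After median polish the median was 0.03, and 0 were lower and 1 higher, MARK2 (0.63), beside 14.8% lower and 16.3% higher over all library siRNAs. The 4 measured CaMKK substrates other than AMPK, CAMK1, CAMK1D, CAMK1G and CAMK4, had 0 lower and 0 higher, between -0.07 and 0.24. Their levels with and without EPA were mixed. CAMK4 was at -1.62 and -1.76 and CAMK1 at -0.85 and -1.09, while CAMK1D was at 0.81 and 0.73 and CAMK1G at 0.26 and 0.34. After median polish the levels were -0.74 and -0.81 (CAMK4), -1.07 and -1.32 (CAMK1), 0.65 and 0.37 (CAMK1D), and -0.07 and -0.10 (CAMK1G).

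The last list held 9 kinases, all downstream of AMPK except MAP3K7, a proposed further kinase of AMPK itself. Of the 9, 1 was lower and 3 higher, and 1 and 1 after median polish. MAP3K7 did not pass (0.51, limma adjusted p = 0.0548). MTOR, the growth kinase that AMPK restrains, was the lower one at -1.54 (SE 0.197, limma adjusted p = 0.000549), and PFKFB3 (0.88) and RPS6KB1 (0.58), a glycolytic regulator and an MTOR-dependent ribosomal kinase, were higher. After median polish PFKFB3 (0.62) still passed and RPS6KB1 (0.27) did not. ULK1, an autophagy kinase phosphorylated by AMPK, was low in both groups, at -1.22 with EPA and -1.14 without it, with a difference of -0.08 that did not pass. After median polish it was called in neither group, at -0.25 with EPA (limma adjusted p = 0.0939) and -0.19 without it (limma adjusted p = 0.202).

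**Figure D4:**
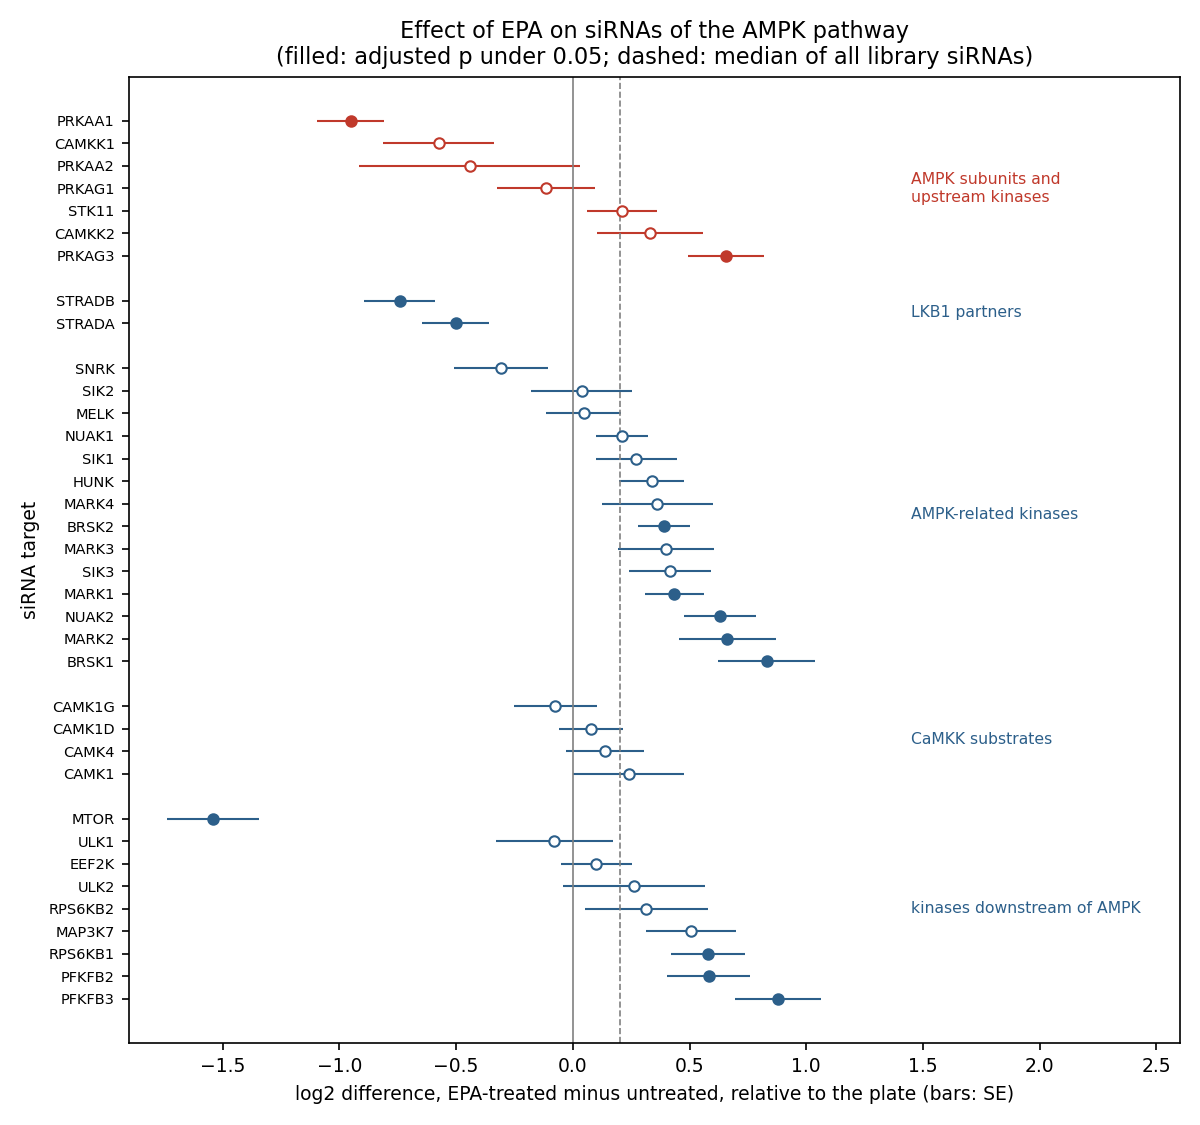
Log2 difference, EPA-treated minus untreated, relative to the plate, for the AMPK genes (red) and 4 lists of pathway genes (blue), with SE bars, filled symbols where limma's adjusted p was under 0.05, and the median of all library siRNAs at 0.20 dashed. PRKAA1 (-0.95), STRADB (-0.74), STRADA (-0.50) and MTOR (-1.54) are the filled points below 0. MAP3K7, a proposed AMPK kinase, is drawn with the kinases downstream of AMPK.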

How the data were processed

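Per the file headers, the table the authors deposited gives each well's raw fluorescence intensity in 6 columns. Any blank subtraction or scaling before deposit is not given in the sources used here. Plate rows and columns were counted along rows of 24 from the position numbers, which puts all control wells in columns 1 to 4. The columns are headed by group and numbered 1 to 6, so they were mapped to groups and not to numbered samples. The log2 values used here, computed from the deposited intensities with no pseudocount or filter, are the ratio of a well to the median library well on its plate in the same sample. limma 3.58.1 in R 4.3.3 (trend and robust options) fitted both group means over all 939 library wells, with two-sided tests and Benjamini-Hochberg adjustment over 939 at 0.05. Replicates correlated at r from 0.908 to 0.942 with EPA and from 0.897 to 0.919 without it, across siRNAs. The number of samples (3 per group) and the blank level limit the precision. The fit was tested on simulated data.

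Neighbours are library wells within 2 rows and 2 columns. With OTP3 centring, the level of a well is relative to OTP3 and not to the library median. Alternatives were OTP3 centring, blank subtraction (floor of 3 SDs of the blank wells), median polish, both together, neighbour centring, quantile normalization, another variance model, edge wells left out, a low-signal filter (2 times the median of TOX, the positive control siRNA, a cut of 8290), each replicate left out and, chosen after seeing the data, centring on the median siRNA. All measured members were named. Up to 3 genes per pathway list, those with the largest moderated statistic in EPA-treated minus untreated, were named by rule. MARK2, CAMK1G, ULK1 and MAP3K7, outside that rule, were named after their values were seen. Of all library siRNAs, the 3 nearest to the member with the largest moderated statistic were also named. The members and lists were chosen with earlier results of these data known. Symbols were updated by locus identifier through RefSeq genes (assembly GRCh38.p14). The siRNA sequences were not used here.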

Additional observations from a re-analysis of the deposited data

How the results depend on the processing

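No paired analysis was possible because the columns carry numbers 1 to 6 and not the numbers the samples share in the labels. Of 327 member values recomputed under alternatives, 262 kept their direction and their side of the threshold, 24 lost and 15 gained the call, and 26 turned sign. Some alternatives cannot move a level and change only its SE or its adjustment. They are another variance model, the low-signal filter, leaving out a replicate of the other group and, without EPA, centring on the median siRNA. The counts of alternatives given here include them. Counts of members are given beside those over all library siRNAs of the same fit (939 unless stated), since both move with the setting, and they say nothing particular to the members. In EPA-treated minus untreated, members called lower numbered 1 at first (143 of all), 0 with OTP3 centring (59), and 2 each after blank subtraction (155), neighbour centring (149), quantile normalization (160) and centring on the median siRNA (194). Members called higher numbered 1 at first (272 of all), 3 with OTP3 centring (546), 0 after blank subtraction (242), 2 after blank subtraction with median polish (129), 2 with neighbour centring (236), and 0 with centring on the median siRNA (131) or the low-signal filter (246 of 859, and 5 members left). With a replicate left out, both ran from 1 to 2. In the levels that follow, OTP3 centring sets a well against OTP3 and not against the library median. Against the library median without EPA, 4 were lower at first (334 of all), 6 with OTP3 centring (862), 3 with neighbour centring (276) or blank subtraction and median polish (219), and 2 after median polish (259) or the low-signal filter (254 of 859). Higher were 2 at first (318), 0 with OTP3 centring (5), blank subtraction (293), median polish (249) or both of the last together (215), 1 with neighbour centring (291) or without edge wells (260 of 780), and 0 to 2 with a replicate left out. With EPA, 5 were lower at first (347 of all), 6 with OTP3 centring (607), 4 after median polish (285) or both corrections (291), and 3 with neighbour centring (292) or the low-signal filter (266 of 859). Higher were 0 at first (342), 1 after median polish (287), both corrections (284) or neighbour centring (345), and 0 to 1 with a replicate left out.

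Signs turned as follows, and the cause was not tested. With OTP3 centring the median of all library siRNAs was itself at -1.13 without EPA, -0.68 with EPA and 0.63 in the difference. With OTP3 centring PRKAA1 (-0.82), PRKAA2 (-0.13) and PRKAG1 (-0.996) turned without EPA, PRKAA2 (-0.052) with EPA, and PRKAA2 (0.079) and PRKAG1 (0.41) in the difference. With median polish the turns were PRKAA2 (-0.24), PRKAG1 (0.42) and CAMKK2 (0.10) with EPA, and PRKAG1 (0.12), STK11 (-0.11) and PRKAA1 minus PRKAA2 (0.19) in the difference. With blank subtraction as well they were PRKAA1 (-0.0037) without EPA, PRKAA2 (-0.35), PRKAG1 (0.61) and CAMKK2 (0.10) with EPA, and PRKAG1 (0.23), STK11 (-0.49) and PRKAA1 minus PRKAA2 (0.13) in the difference. STK11 turned to -0.27 with blank subtraction, -0.043 with neighbour centring and -0.050 with centring on the median siRNA. PRKAG1 with EPA was at 0.79 with neighbour centring and 0.17 without edge wells. With replicates left out the difference ran from -0.98 to 0.23 for PRKAA2, from -0.26 to 0.12 for PRKAG1, from -0.83 to -0.30 for CAMKK1, from 0.14 to 0.61 for CAMKK2, from -1.19 to 0.033 for PRKAA1 minus PRKAA2 and from -0.37 to 0.12 for STK11 minus CAMKK2, and with EPA from -0.012 to 1.20 for PRKAA2 and from -0.16 to 0.22 for PRKAG1. Without EPA-treated replicate 5, PRKAA2 with EPA was called higher.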
